A study of Mus musculus with 35 samples.

Results

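Dendritic cells and Langerhans cells were followed through 9 genes by which they are recognised: Cd209a, Cd207, Itgax, Flt3, Ccr7, Cd86, Irf8, Batf3 and Zbtb46. The genes were chosen by symbol, and all 9 were found among the 22609 gene symbols of the count tables. Messenger RNA had been sequenced in 35 libraries of cells sorted from hind paw skin of C57 mice aged 8 to 16 weeks. PTX (paclitaxel, a chemotherapy drug that stabilises microtubules) was given to males as 2 intraperitoneal injections of 2 mg/kg on nearby days, with skin collected 6 days later. Immune cells, sorted by the leukocyte surface protein CD45, came from wild-type mice, in 4 libraries of PTX males, 4 of vehicle males and 4 of vehicle females. Fibroblasts were Col1a2-positive cells of Col1a2-cre-ER/tdTom mice, in 4 libraries of PTX males, 4 of vehicle males and 4 of vehicle females. Keratinocytes were K5-positive cells of K5-cre-ER/tdTom mice, in 4 libraries of PTX males, 3 of vehicle males and 4 of vehicle females. The 3 sorts therefore differ in genotype as well as in cell type, and in the 2 Cre lines the sorted cells are those marked through the Col1a2 or K5 driver. No PTX females were among the samples, so a difference between PTX males and vehicle females is also one between sexes, and the 2 cannot be told apart. Nothing in the labels ties a library to its own animal, so the tests reflect the scatter among libraries, which may be technical.

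Dendritic cells take up antigen in tissues, carry it to lymph nodes and present it to T cells on MHC class II molecules. Langerhans cells are the antigen-presenting cells of the epidermis, and dermal dendritic cells are usually divided into cDC1, cDC2 and plasmacytoid kinds, each built under its own transcription factors. Lectins on the cell surface capture antigen, the receptor FLT3 carries the growth signal, CCR7 guides migration to lymph nodes, and CD86 is the costimulatory ligand that T cells need. Several of these genes are also used by other leukocytes, macrophages and B cells among them, so a level in a mixed sort belongs to no single cell type.

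Immune libraries held 13847475 to 18979776 counts in genes, fibroblast libraries 13359088 to 20809036 and keratinocyte libraries 988712 to 12055718. Levels are given as CPM, counts scaled to library size and, by TMM within each sort, for library composition. Ptprc, which encodes CD45, lay at 464 to 839 CPM in PTX males, 361 to 588 CPM in vehicle males and 427 to 718 CPM in vehicle females of the immune sort. Gene detection in this sort moved with treatment: of the 12131 genes tested, 29.8 to 51.9% lay under 1 CPM in the PTX libraries, against 5.0 to 14.1% in the 8 vehicle libraries. Fibroblast markers moved too, with a summed level of 239 to 1443 CPM in PTX males, 4338 to 10075 CPM in vehicle males and 88.4 to 398 CPM in vehicle females. A count of 0 allows up to 3 counts in a library, on average 0.232 CPM in the PTX immune libraries, and covers counting error only. Since sorted cells were sequenced in bulk, fewer cells of a type and less RNA per cell cannot be told apart.

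The immune sort was where these genes were measured. In vehicle mice, 8 of the 9 genes were higher in immune cells than in fibroblasts by edgeR's quasi-likelihood test with Benjamini-Hochberg adjustment at 0.05, in a fit in which 19.4% of 14459 genes were called in either direction. Against vehicle keratinocytes 9 of 9 were higher, where 28.1% of all genes were called. On a common scale Cd86 averaged 341 ± 161 CPM in the 8 vehicle immune libraries, against 1.34 ± 1.10 CPM in the 8 vehicle fibroblast libraries (SD). In the 7 vehicle keratinocyte libraries Cd86 averaged 0.0810 ± 0.0640 CPM. Cd209a, Ccr7, Itgax, Flt3 and Cd207 were at 207, 133, 46.8, 22.4 and 8.84 CPM in vehicle immune cells, and each averaged under 1 CPM in both other vehicle sorts. Itgax had no count in any of the 7 vehicle keratinocyte libraries.

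The transcription factors held counts in some vehicle fibroblast libraries as well. Irf8 averaged 194 ± 105 CPM in vehicle immune cells and 30.0 ± 37.7 CPM in vehicle fibroblasts (SD, n = 8 each, log2 fold change 2.81 ± 0.86 (SE), adjusted p = 0.0157). Batf3 averaged 13.7 ± 8.82 CPM in vehicle immune cells and 1.72 ± 3.09 CPM in vehicle fibroblasts (log2 fold change 4.73 ± 1.63, adjusted p = 0.0349). That call is the least stable of the 8: it held in 13 of 23 alternatives, and the adjusted p lay between 0.0504 and 0.0741 without vehicle immune female library 1 or male library 3 or 4, any vehicle fibroblast female library, or vehicle fibroblast male library 2, 3 or 4. Zbtb46 did not pass, at 26.3 ± 12.8 CPM in vehicle immune cells and 20.8 ± 24.3 CPM in vehicle fibroblasts (log2 fold change 1.91 ± 1.32, adjusted p = 0.410).

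**Figure D1:**
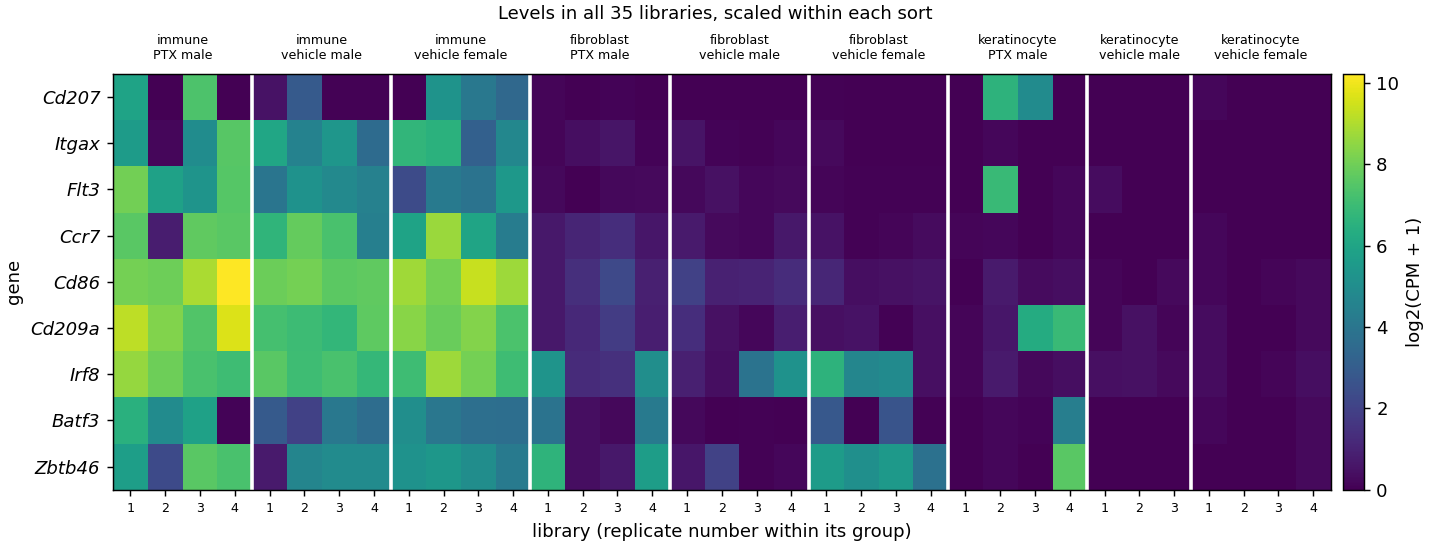
Level of each of the 9 genes (rows) in each of the 35 libraries (columns, grouped by sort and treatment), as log2(CPM + 1) with CPM scaled within each sort. The immune columns are bright for most genes, the fibroblast columns hold signal mainly for Irf8, Batf3 and Zbtb46, and the keratinocyte columns are dark except for single cells of the plot in PTX libraries 2, 3 and 4.

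Between PTX and vehicle males in the immune sort, Cd209a was the only gene of the 9 that passed the test, and it did so narrowly. All 9 fold changes were positive, with a median log2 fold change of 1.69 against 0.10 over all 12131 genes tested. The median was 0.52 over 8 pan-immune markers. Among marker lists of immune cells other than dendritic cells it ran from -1.39 (B cell) to 1.64 (mast cell). Between vehicle females and vehicle males, without PTX, 8 of the 9 fold changes were positive, with a median of 0.73. The 1 call among 9 stands against 0.956% of all genes called higher and 5.51% called in either direction. Flt3 and Cd86 had unadjusted p-values under 0.05, as did 2435 of all genes, and did not pass after adjustment. Against vehicle females none of the 9 passed in edgeR's test, where 0.231% of all genes were called higher and 1.76% in either direction. In that comparison 1 gene, Flt3, had an unadjusted p under 0.05, as did 1910 of all 12131 genes, and DESeq2 called 1 of the 9 and 1258 of all genes. Of all genes called against vehicle males 17.3% were higher, and 5.75% with plain CPM or 1.88% with scaling to pan-immune markers, which moved the median of all genes to -0.25 and -0.48. The comparisons with the 2 vehicle groups share the PTX libraries, so their values are given side by side and are not separate evidence.

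Cd209a encodes a C-type lectin of the DC-SIGN family that binds sugars on microbes and is found on dermal dendritic cells and macrophages. Its level was 596, 314, 175 and 822 CPM in PTX libraries 1 to 4, 146, 129, 110 and 206 CPM in vehicle males, and 337, 234, 317 and 159 CPM in vehicle females. PTX libraries 1, 2 and 4 lay above every vehicle male, PTX library 3 lay within their range, and the ranges of PTX males and vehicle females overlapped. The mean was 477 ± 289 CPM in PTX males and 148 ± 41.7 CPM in vehicle males (SD, n = 4 each), and the log2 fold change of 1.69 ± 0.43 (SE) had an adjusted p = 0.0387. Against the 262 ± 82.0 CPM of vehicle females the log2 fold change was 0.86 ± 0.42 (adjusted p = 0.348). The call against vehicle males held in 4 of 17 alternatives (RLE scaling, DESeq2, and without PTX library 2 or 3), with adjusted p from 0.00261 to 0.277. It was lost without PTX library 1 or 4 or without any 1 vehicle male library (adjusted p from 0.0645 to 0.119). Mouse Cd209a has several close relatives in the genome, and reads with no unique place were not counted, so its level is uncertain.

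Mast cell markers were also higher than in vehicle males in both other groups. Against vehicle females their median log2 fold change in PTX males was -0.41. Of 9 such markers, 8 passed as higher in PTX males than in vehicle males and 6 as higher in vehicle females than in vehicle males. Of all 12131 genes, 0.956% were called higher in the first of these comparisons and 8 genes in the second. Their summed level was 3577 to 9680 CPM in PTX males, 1719 to 3023 CPM in vehicle males and 6663 to 8655 CPM in vehicle females, with no marker at 0 in any library. Their part in the Cd209a result was not tested.

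Cd207 encodes langerin, the lectin that forms the Birbeck granules of Langerhans cells and also marks a group of dermal cDC1. It was present in some immune libraries and nearly absent from others of the same group. PTX libraries 1 and 3 held 59.6 and 164 CPM, and PTX libraries 2 and 4 had no count. The 4 vehicle male libraries held 0.400, 6.51, 0.0545 and 0.0488 CPM, which for 3 of them is 8 counts or fewer. In vehicle females, library 1 had no count and libraries 2 to 4 held 37.3, 15.9 and 10.02 CPM. The 3 groups overlapped, and the large fitted log2 fold change against vehicle males, 4.99 ± 2.63 (SE), did not pass (adjusted p = 0.343). Against vehicle females it was 1.82 ± 2.29 (adjusted p = 0.884). Leaving out 1 library moved these values to between 3.48 and 8.22 against vehicle males and to between 0.28 and 2.5996 against vehicle females.

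Itgax encodes CD11c, the integrin alpha chain most often used to gate dendritic cells, also carried by some macrophages. The PTX libraries held 47.5, 0.131, 30.3 and 190.3 CPM, vehicle males 66.2, 22.4, 40.4 and 10.8 CPM, and vehicle females 105, 92.2, 7.76 and 26.0 CPM. PTX library 4 was the highest of the 12 and PTX library 2, with 2 counts, the lowest, so the PTX group spanned both vehicle groups. The log2 fold change was 0.94 ± 1.26 (SE) against vehicle males (adjusted p = 0.857) and 0.21 ± 1.25 against vehicle females (adjusted p = 0.986), and its sign changed in 2 and 7 of 17 alternatives, in both comparisons without PTX library 4.

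**Figure D2:**
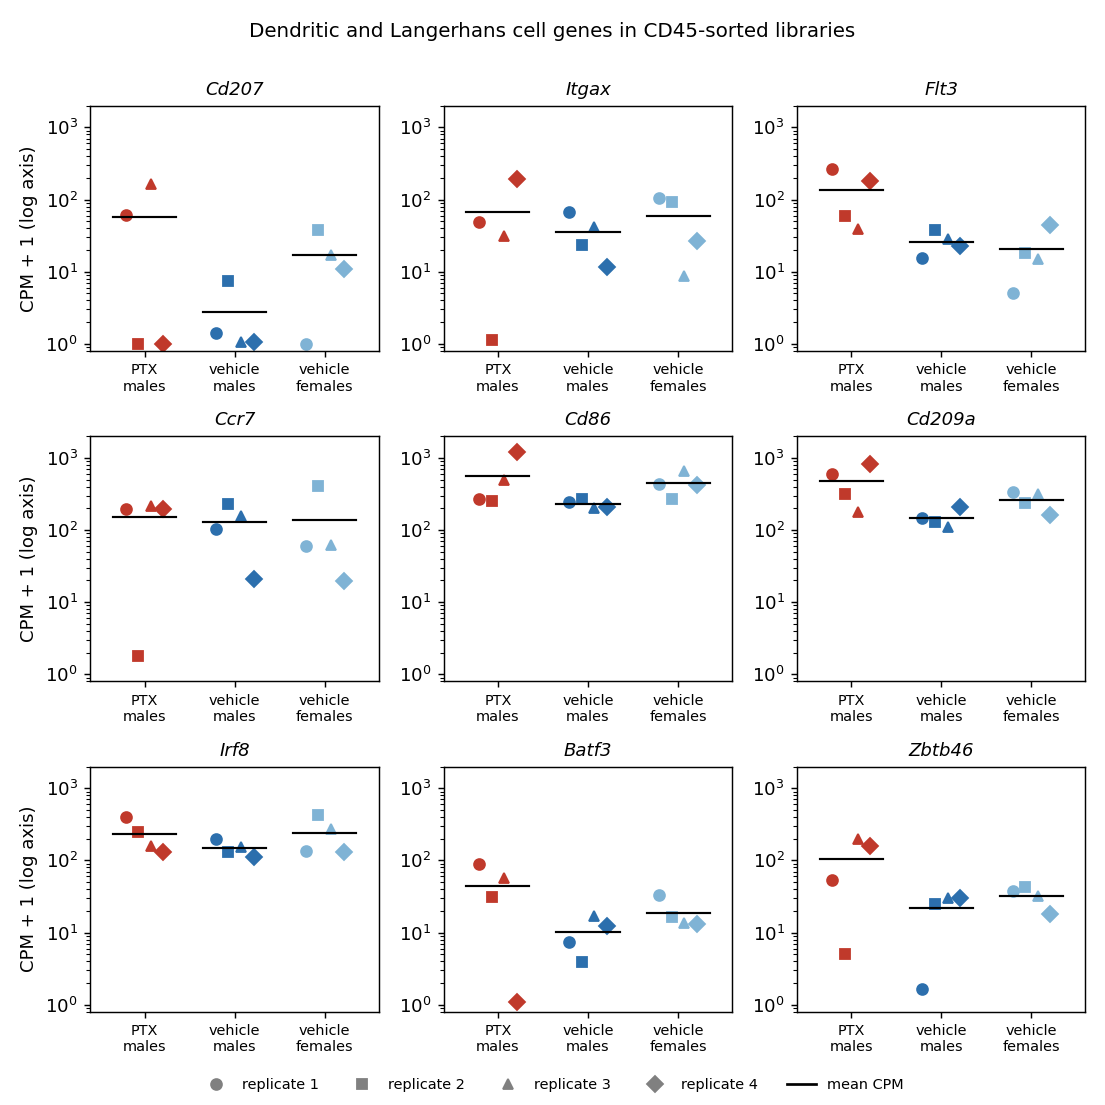
CPM + 1 on a log axis for the 9 genes in the 12 immune libraries, with 1 panel per gene, point shape for the replicate number and a line at the mean of each group (4 libraries each). PTX library 2 (square) is the lowest of the PTX points in the Itgax, Ccr7 and Zbtb46 panels, while in the Flt3 panel all 4 PTX points lie above the vehicle males.

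The promoters of the 3 genes with the clearest differences or the most uneven levels are shown because they are the sequences upstream of these transcripts. They are the 250 bases before the annotated start on the gene's own strand, from RefSeq on GRCm38.p6, a later build than the mm9 build of the counts. RefSeq windows were at hand for 7 of the 9 genes, and windows of 6 were used, since that of Zbtb46 begins inside the gene. Capitals mark matches, on either strand, to an AP-1 type motif (TGANTCA) or an ETS type motif (AGGAAG).
Cd209a, chr8:3748985-3749234, minus strand: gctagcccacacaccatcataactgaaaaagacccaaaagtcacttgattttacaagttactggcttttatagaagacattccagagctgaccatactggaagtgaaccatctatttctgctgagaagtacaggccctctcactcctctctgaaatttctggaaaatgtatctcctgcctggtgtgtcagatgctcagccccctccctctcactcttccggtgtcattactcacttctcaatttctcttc
Flt3, chr5:147400490-147400739, minus strand: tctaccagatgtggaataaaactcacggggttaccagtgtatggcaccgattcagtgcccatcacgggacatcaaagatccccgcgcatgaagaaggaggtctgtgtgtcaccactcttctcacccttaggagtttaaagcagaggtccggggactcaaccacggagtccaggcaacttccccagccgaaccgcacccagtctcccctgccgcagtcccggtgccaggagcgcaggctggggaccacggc
Cd207, chr6:83677858-83678107, minus strand: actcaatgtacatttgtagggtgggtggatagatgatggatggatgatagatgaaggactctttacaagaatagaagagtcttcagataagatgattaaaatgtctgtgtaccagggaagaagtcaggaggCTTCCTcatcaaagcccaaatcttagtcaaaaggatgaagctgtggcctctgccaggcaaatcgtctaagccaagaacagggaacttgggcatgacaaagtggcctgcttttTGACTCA
The Cd207 window ends in an AP-1 type match next to the start and holds 1 ETS type match, and the windows of Cd209a and Flt3 hold neither. Of the 6 windows used, 2 held the AP-1 type motif (Cd207 and Itgax) and 2 the ETS type motif (Cd207 and Batf3), against 6.7% and 29.5% of 32851 mouse promoter windows of the same length. An IRF type motif (GAAANNGAA), present in 7.1% of those windows, was in none of the 6. A match is a description of letters and no sign that a factor binds there.

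Flt3 encodes the receptor tyrosine kinase whose ligand drives dendritic cell development from bone marrow precursors. Its level was 267, 57.2, 37.8 and 182 CPM in PTX males, 14.7, 36.6, 27.5 and 21.5 CPM in vehicle males, and 4.01, 17.0, 14.1 and 42.8 CPM in vehicle females. All 4 PTX libraries lay above all 4 vehicle males, which held for 1 of the 9 genes and for 13.9% of all genes in either direction. The gap was narrow, with the lowest PTX library at 37.8 CPM and the highest vehicle male at 36.6 CPM. The log2 fold change was 2.44 ± 0.82 (SE) against vehicle males (adjusted p = 0.0992) and 2.80 ± 0.83 against vehicle females (adjusted p = 0.112). Neither passed in edgeR's test. Against vehicle females 0 of the 9 genes had groups that did not overlap, where 7.61% of all genes did. Both comparisons passed in DESeq2 (adjusted p = 0.00817 and 0.00271), and so did PTX males against the mean of both vehicle groups in edgeR (log2 fold change 2.62, adjusted p = 0.0410).

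Ccr7 encodes the chemokine receptor that takes mature dendritic cells to the lymph node, and it is also carried by naive T and B cells. PTX libraries 1, 3 and 4 held 197, 211 and 194 CPM and PTX library 2 held 0.783 CPM, or 12 counts. Vehicle males held 104, 226, 157 and 20.1 CPM, and vehicle females 59.7, 410.1, 61.7 and 18.9 CPM. Outside PTX library 2, the PTX libraries lay within the range of both vehicle groups. The log2 fold change was 0.25 ± 1.14 (SE) against vehicle males (adjusted p = 0.970) and 0.13 ± 1.14 against vehicle females (adjusted p = 0.990), and its sign changed in 5 and 9 of 17 alternatives. B cell markers, which share libraries with Ccr7, summed to 51.0 to 236 CPM in PTX males, 0.390 to 659 CPM in vehicle males and 17.2 to 1814 CPM in vehicle females. Their part in the Ccr7 levels was not tested.

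Cd86 encodes the ligand of CD28 and CTLA4 on T cells and is carried by dendritic cells, macrophages and activated B cells. Its level was 272, 252, 488 and 1200.1 CPM in PTX males, 243, 268, 198 and 209 CPM in vehicle males, and 434, 271, 652 and 420.4 CPM in vehicle females. PTX libraries 1, 3 and 4 were above every vehicle male, library 1 by a few CPM, and PTX library 4 was the highest of the 12. The log2 fold change against vehicle males was 1.27 ± 0.44 (SE, adjusted p = 0.110), and it passed in 1 of 17 alternatives, DESeq2. Against vehicle females it was 0.31 ± 0.44 (adjusted p = 0.901) and fell to -0.48 without PTX library 4.

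Irf8 encodes a transcription factor needed for cDC1 and plasmacytoid cells and also active in macrophages and B cells. Its level was 395, 247, 156 and 132 CPM in PTX males, 195, 131, 154 and 111 CPM in vehicle males, and 133, 419, 269 and 132 CPM in vehicle females. The 3 groups overlapped, and the log2 fold change was 0.66 ± 0.44 (SE) against vehicle males (adjusted p = 0.532) and -0.03 ± 0.43 against vehicle females (adjusted p = 0.992).

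Batf3 encodes the AP-1 family partner on which cDC1 depend. PTX libraries 1 to 3 held 88.7, 29.7 and 56.8 CPM, while PTX library 4 had 1 count, or 0.0852 CPM. Vehicle males held 6.41, 2.92, 15.9 and 11.5 CPM and vehicle females 31.8, 15.5, 12.4 and 12.1 CPM. PTX libraries 1 to 3 lay above every vehicle male and PTX library 4 below, so the groups overlapped and the log2 fold change of 2.25 ± 1.30 (SE) did not pass (adjusted p = 0.418). Against vehicle females it was 1.29 ± 1.26 (adjusted p = 0.815).

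Zbtb46 encodes a zinc finger factor that marks conventional dendritic cells and their precursors in mouse, and endothelial cells as well. It was at 52.2, 3.98, 195 and 158 CPM in PTX males, 0.651, 23.9, 29.4 and 29.3 CPM in vehicle males, and 36.2, 41.5, 31.2 and 16.8 CPM in vehicle females. PTX libraries 1, 3 and 4 were above all 8 vehicle libraries, and PTX library 2 was below all of them but vehicle male library 1. The log2 fold change was 2.30 ± 1.11 (SE) against vehicle males (adjusted p = 0.275) and 1.70 ± 1.08 against vehicle females (adjusted p = 0.567). Endothelial markers in this sort summed to 0.0653 to 65.2 CPM in PTX males. The sums were 55.5 to 655 CPM in vehicle males and 58.2 to 113 CPM in vehicle females. Cdh5, an endothelial marker, lay at 0 to 0.0653 CPM in the PTX libraries. The part of endothelial cells in the Zbtb46 levels was not tested.

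**Figure D3:**
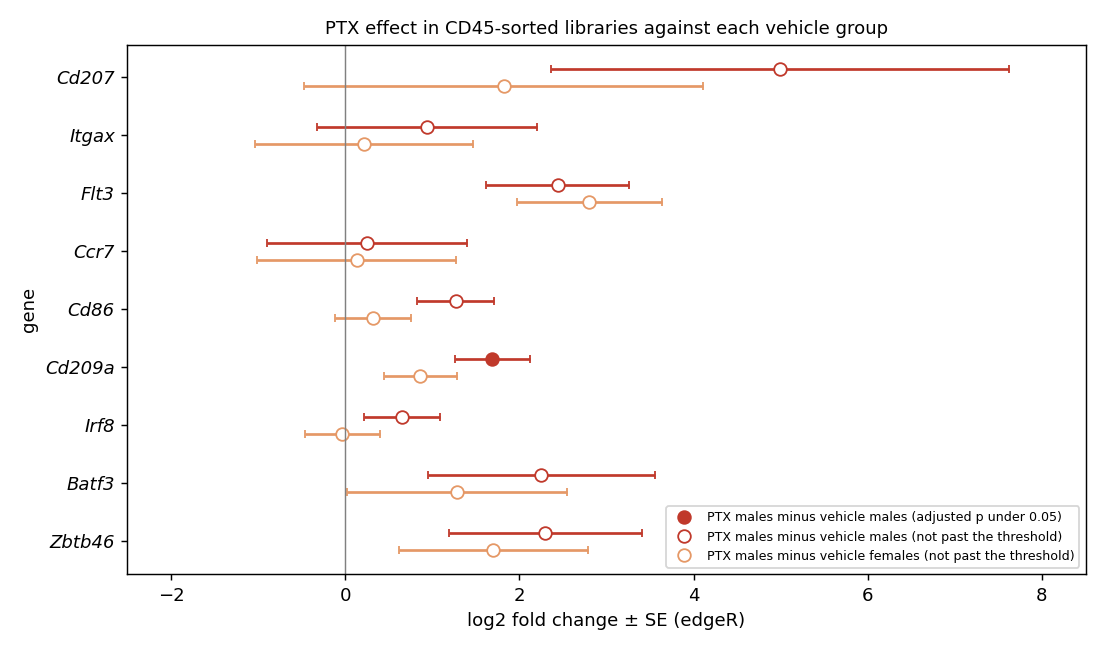
Fold changes of the 9 genes in the immune sort on a log2 scale (x axis), with bars of 1 standard error, for PTX males against vehicle males (upper point of each pair) and against vehicle females (lower point). The filled point is Cd209a against vehicle males, the only one past the adjusted threshold, and the widest bars belong to Cd207.

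The vehicle groups themselves did not differ past the threshold for any of the 9 genes in edgeR's test, where 0.354% of all genes were called. Cd86 was the gene of the 9 with the lowest p (adjusted p = 0.999988), and its 4 vehicle female libraries lay above its 4 vehicle males, with a log2 fold change of 0.95 ± 0.44 (SE). Groups did not overlap for 1 of the 9 genes and, in either direction, for 847 of all 12131 genes. Cd86 passed in 1 alternative, limma with voom quality weights (adjusted p = 0.0419). Cd209a in vehicle females, at 262 ± 82.0 CPM, lay between PTX males and vehicle males, and its log2 fold change over vehicle males was 0.82 ± 0.42 (adjusted p = 0.999988).

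Summed over the 9 genes, the level was 1975, 905, 1515 and 2877 CPM in PTX males, 776, 847, 732 and 620 CPM in vehicle males, and 1141, 1537, 1381 and 837 CPM in vehicle females. The PTX libraries lay above the vehicle males and overlapped the vehicle females. Low values fell in particular libraries: 3 of the 9 genes were under 1 CPM in PTX library 2 and 2 in PTX library 4, against 0 in PTX libraries 1 and 3. In vehicle males the number was 0 to 2 and in vehicle females 0 to 1. PTX libraries 2 and 4 had 32.5% and 51.9% of all tested genes under 1 CPM, and PTX libraries 1 and 3 had 41.2% and 29.8%. The part of gene detection in the low values was not tested.

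The 9 genes did not vary as 1 block across the 12 immune libraries. On log2(CPM + 1), the pair most alike was Itgax and Ccr7 (Pearson r = 0.79), followed by Cd209a and Cd86 (r = 0.60) and Cd86 and Zbtb46 (r = 0.54), and the lowest was Cd86 and Batf3 (r = -0.40). These are descriptions over 12 libraries that share depth, sort and treatment. Itgax and Ccr7 were both lowest in PTX library 2, at 0.131 and 0.783 CPM, and no r without that library was computed. Among 10368 other genes with a mean of at least 5 CPM, the pattern most like Cd207 was that of Car8 (r = 0.957), then Zfyve27 and Rarres1 (r = 0.884 each). For Cd209a they were Capza1 (r = 0.898), Mrgprb1 (r = 0.888) and AI836003 (r = 0.886). For Flt3 they were Myo9b (r = 0.929), Fli1 (r = 0.896) and U2af1 (r = 0.892). For Ccr7 they were Il1r2 (r = 0.957), Nop2 (r = 0.907) and Ngfrap1 (r = 0.896), and for Itgax they were Pde4dip (r = 0.918), Rnase6 (r = 0.901) and Prep (r = 0.896). Cd86 was nearest to Ehd1 (r = 0.913), Ftl1 (r = 0.912) and Igsf6 (r = 0.896). Irf8 was nearest to Samhd1 (r = 0.887), Cyth1 (r = 0.845) and Icosl (r = 0.836). Batf3 was nearest to Glb1 (r = 0.914), Cd200r1 (r = 0.913) and Itsn2 (r = 0.911), and Zbtb46 to Pla2g4a (r = 0.926), Atpbd4 (r = 0.902) and Aatf (r = 0.898).

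Of the 8 lists of dendritic cell biology, MHC class II held the most calls. In PTX against vehicle males, 5 of 12 tested genes rose and 0 fell, with a list median of 1.30 on the log2 scale against 0.10 over all genes. H2-Ab1, which encodes a class II beta chain, averaged 11932 ± 4679 CPM in PTX males and 3778 ± 706 CPM in vehicle males (SD, n = 4 each, log2 fold change 1.66 ± 0.27 (SE), adjusted p = 0.00661). Cd74, the invariant chain that guides class II molecules to the endosome, averaged 12055 ± 3422 CPM in PTX males and 4569 ± 1004 CPM in vehicle males (log2 fold change 1.40 ± 0.24, adjusted p = 0.00760). H2-Eb1 and H2-Aa, further class II chains, rose by 1.55 ± 0.29 and 1.51 ± 0.29 on the same scale (adjusted p = 0.0117 and 0.0125). Against vehicle females 4 of the 12 rose, these same 4, with log2 fold changes of 1.18 to 1.38, and 4 to 6 of the 12 were called higher in each of the 17 alternatives against vehicle males. The summed level was 32883 to 62865 CPM in PTX males, 11905 to 20947 CPM in vehicle males and 15416 to 24839 CPM in vehicle females, and the PTX range lay above both vehicle ranges. Macrophage markers, whose cells carry class II as well, summed to 29350 to 47732 CPM in PTX males, 21127 to 30859 CPM in vehicle males and 22492 to 40079 CPM in vehicle females, and 1 of 11 rose against vehicle males. The part of macrophages in the class II result was not tested.

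Of the genes of cDC2 cells, 2 of 12 tested were higher in PTX than in vehicle males, with 0 lower and a list median of 0.87. They were Mgl2, a sugar-binding lectin shared with macrophages, at 728 ± 175 CPM in PTX males and 255 ± 67.3 CPM in vehicle males (log2 fold change 1.51 ± 0.32, adjusted p = 0.0196), and Tnip3, at 361 ± 111 CPM in PTX males and 96.5 ± 11.2 CPM in vehicle males (1.90 ± 0.43, adjusted p = 0.0254). Neither passed against vehicle females (adjusted p = 0.626 and 0.0952). The summed cDC2 level was 3418 to 3846 CPM in PTX males, 1805 to 2196 CPM in vehicle males and 2012 to 2818 CPM in vehicle females. Leaving out any 1 vehicle male library left 0 cDC2 genes called.

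Genes of cDC1 cells gave no call among 7 tested, with 3 of them positive and a median of -1.70, against -0.58 relative to vehicle females. Their summed level was 259 to 705 CPM in PTX males, 238 to 364 CPM in vehicle males and 292 to 395 CPM in vehicle females, which overlapped. The 2 with the lowest p were both near 0 in the PTX libraries. Tlr3, a receptor for double-stranded RNA, was at 0.0560 ± 0.0379 CPM in PTX males and 6.74 ± 6.74 CPM in vehicle males (adjusted p = 0.0725), and Cd8a, shared with T cells, was at 0.0193 ± 0.0387 and 2.47 ± 2.59 CPM in the same groups (adjusted p = 0.120). Xcr1, of the same list, had 383, 220, 1 and 0 counts in PTX males and 45, 63, 26 and 0 in vehicle males. In vehicle females it had 1, 75, 107 and 51 counts. Xcr1 was named after its values were seen. Of the 6 plasmacytoid genes tested 1 fell, with a median of -0.68. This was Cox6a2, with no count in the 4 PTX libraries and 10.4 ± 7.27 CPM in vehicle males, at least 45.0-fold lower against a floor of 3 counts per library (adjusted p = 0.0392). Skeletal muscle markers were lower beside it, with 2 of 5 tested called lower and sums of 1.501 to 62.2 CPM in PTX males, 16.4 to 979 CPM in vehicle males and 10.06 to 31.9 CPM in vehicle females. Vehicle male library 4 had no Cox6a2 count and the lowest muscle sum of the vehicle males. The part of muscle RNA in the Cox6a2 result was not tested. Siglech, the plasmacytoid surface lectin, was at 158 ± 105 CPM in PTX males and 86.2 ± 23.4 CPM in vehicle males (adjusted p = 0.807).

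Langerhans cell genes other than Cd207 gave 1 higher and 1 lower call of 12 tested, with a median of 0.59. Id2, a transcription factor needed for Langerhans cells and cDC1 and used by many other leukocytes, averaged 508 ± 277 CPM in PTX males and 192 ± 13.7 CPM in vehicle males (log2 fold change 1.40 ± 0.34, adjusted p = 0.0330). It was also the 1 gene of 14 transcription factors of the dendritic lineage that passed, in a list with a median of 1.17 that also holds Irf8, Batf3 and Zbtb46. Keratinocyte markers were lower in the same PTX libraries, with 2 of 7 tested called lower and sums of 4.31 to 28.3 CPM in PTX males, 99.1 to 2376 CPM in vehicle males and 17.8 to 120 CPM in vehicle females. Their part in the calls of this list was not tested. The Id2 call was lost without PTX library 1 or without any 1 vehicle male library. Against vehicle females, Id2 did not pass (adjusted p = 0.201), while Bcl6 rose (log2 fold change 1.52 ± 0.34, adjusted p = 0.0400) and Tgfbr2 fell (-0.87 ± 0.21, adjusted p = 0.0499). Bcl6 and Tgfbr2 were named after their values were seen.

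Of 15 tested genes of mature and migratory dendritic cells, 1 rose and 1 fell against vehicle males, with a median of 0.25. Cd83, a surface protein induced on activation, averaged 3537 ± 508 CPM in PTX males and 1641 ± 318 CPM in vehicle males (log2 fold change 1.11 ± 0.17, adjusted p = 0.00628). Fscn1, which encodes the actin bundler fascin of mature dendritic cells, had no count in any PTX library and averaged 9.09 ± 5.89 CPM in vehicle males, at least 39.2-fold lower (adjusted p = 0.0182). Fscn1 also fell against the 4.79 ± 2.92 CPM of vehicle females (adjusted p = 0.0392), and there Cd83 did not pass (0.64 ± 0.17, adjusted p = 0.0812). Gene detection was lower in the PTX libraries and endothelial marker sums differed between the groups, both as given above. Their part in the Fscn1 result was not tested. Among 13 tested ligands and receptors of dendritic cell growth, homing and costimulation, 0 rose and 1 fell, with a median of 1.33. The one that fell was Cxcl14, a chemokine made by epithelium and fibroblasts, at 0.593 ± 0.259 CPM in PTX males and 44.5 ± 5.58 CPM in vehicle males (log2 fold change -6.22 ± 1.32, adjusted p = 0.0192). In vehicle females it was at 2.41 ± 3.04 CPM. The fibroblast marker sums given above, highest in vehicle males, ran in the same order for vehicle males against the other groups, and their part in the Cxcl14 result was not tested.

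**Figure D4:**
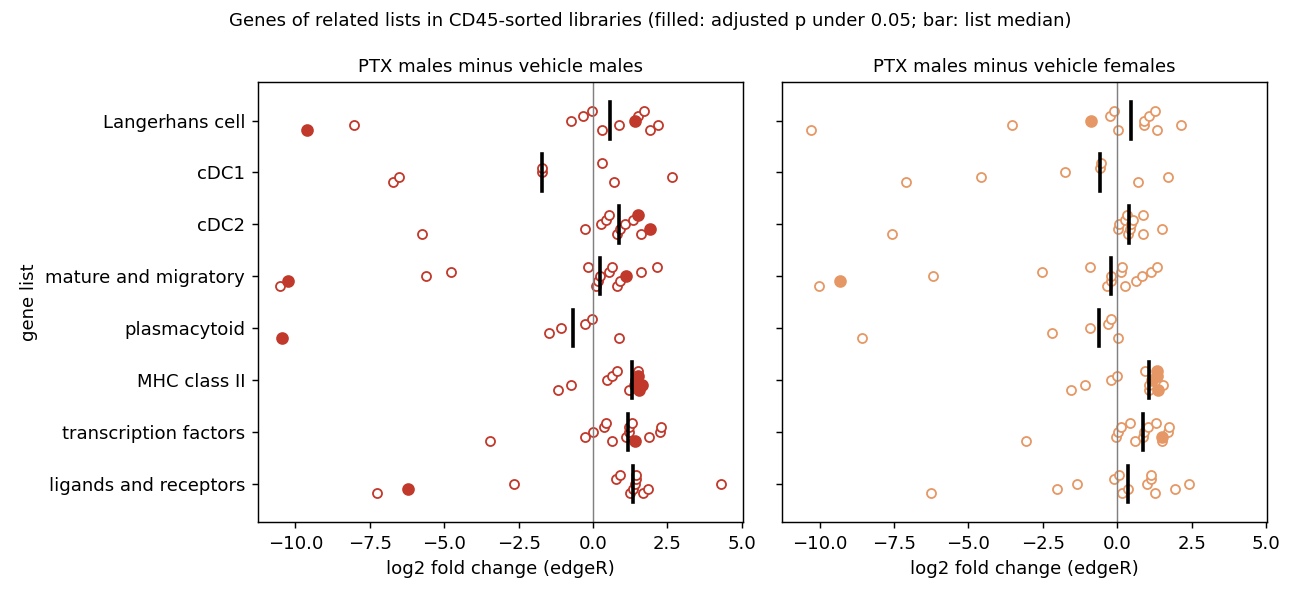
Log2 fold changes in the immune sort for genes of 8 related lists (rows), against vehicle males on the left and vehicle females on the right, each point a gene, filled where it passed the adjusted threshold, with a bar at the list median. Filled points cluster to the right of 0 in the MHC class II row of both panels, and the far left points are genes at or near 0 counts in the PTX libraries.

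In fibroblasts 5 of the 9 genes passed the filter on low counts (Cd86, Cd209a, Irf8, Batf3 and Zbtb46), and 0 of these 5 were called between PTX and vehicle males in edgeR's test, where 0.0184% of genes were called. Batf3 and Zbtb46 had unadjusted p-values under 0.05, as did 876 of all genes, and DESeq2 called 412 genes, of the 9 Zbtb46 alone (adjusted p = 0.00989). Zbtb46 had 1886, 3, 7 and 762 counts in PTX libraries 1 to 4, 7, 50, 1 and 2 counts in vehicle males and 938, 629, 812 and 237 counts in vehicle females. By these counts, not scaled to library size, PTX libraries 2 and 3 were within the range of the vehicle males. PTX libraries 1 and 4 were within or above that of the vehicle females (log2 fold change against vehicle males 5.30 ± 2.01 (SE), adjusted p = 0.474). Batf3 was high in the same 2 PTX libraries, with 263, 3, 2 and 260 counts, against 2, 0, 1 and 0 counts in vehicle males and 120, 0, 96 and 1 counts in vehicle females (adjusted p = 0.474). Irf8 had 717, 14, 21 and 482 counts in PTX males, 11, 5, 288 and 561 counts in vehicle males and 1883, 473, 511 and 6 counts in vehicle females, and its groups overlapped (adjusted p = 0.995). Pan-immune markers in these libraries summed to 19.0 to 72.3 CPM in PTX males, 12.7 to 65.9 CPM in vehicle males and 7.64 to 22.6 CPM in vehicle females. Endothelial markers summed to 0.370 to 3.84 CPM in PTX males, 0.124 to 0.535 CPM in vehicle males and 0.0562 to 21.7 CPM in vehicle females, with 2 to 7 of the 8 markers at 0 in each library. Among the 4 PTX libraries both sums were lower in libraries 1 and 4 than in libraries 2 and 3. The part of immune and endothelial cells in the Zbtb46 and Batf3 counts was not tested.

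In keratinocytes none of the 9 genes passed the filter on low counts, so edgeR's test of the filtered genes, in which 1.45% of genes were called, gave no test of them. Without the filter 8 of the 9 had positive fold changes and 4 an unadjusted p under 0.05 in edgeR's test, and none passed after adjustment. Without any 1 vehicle male library 2 of the 9 had positive fold changes and 1 an unadjusted p under 0.05, and none passed. With vehicle counts near 0, a gene of the 9 could pass the filter there only through the PTX libraries. The positive signs were therefore set by the filter and are no separate result. Without any 1 PTX library the 9 genes again did not pass the filter. The vehicle libraries held 0 to 4 counts of each gene. In PTX males 5 of the genes had high counts in 1 or 2 libraries only. Cd207 had 0, 746, 372 and 0 counts in PTX libraries 1 to 4, Cd209a had 1, 4, 967 and 862, and Flt3 had 0, 931, 0 and 1. Zbtb46 had 0, 1, 0 and 1350 counts and Batf3 had 0, 1, 1 and 140. Itgax, Ccr7, Cd86 and Irf8 stayed at 0 to 5 counts in all 4 PTX libraries. PTX library 1 held no more than 1 count of any of the 9.

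Other immune genes were present in all 4 PTX keratinocyte libraries. Pan-immune markers summed to 1034 to 1357 CPM in PTX males, 11.6 to 67.0 CPM in vehicle males and 13.97 to 144 CPM in vehicle females, with none of the 8 at 0 in any library. Macrophage markers summed to 1265 to 3984 CPM in PTX males, 42.2 to 115 CPM in vehicle males and 48.7 to 235 CPM in vehicle females. MHC class II genes summed to 375 to 5352 CPM in PTX males, 29.0 to 92.8 CPM in vehicle males and 43.0 to 229 CPM in vehicle females, and 4 of 7 tested rose against vehicle males. Endothelial markers summed to 2628 to 3616 CPM in PTX males, 0.876 to 381 CPM in vehicle males and 0.866 to 24.6 CPM in vehicle females. Fibroblast markers summed to 14516 to 20130 CPM in PTX males. In vehicle males they summed to 111 to 574 CPM and in vehicle females to 201 to 1266 CPM. Keratinocyte markers were lower in the same PTX libraries, at 4396 to 12578 CPM, against 29952 to 32289 CPM in vehicle males and 19274 to 33383 CPM in vehicle females. PTX library 1, without the 9 genes, had the lowest MHC class II, macrophage and keratinocyte sums of the 4. It also had the highest Ptprc of the 4, at 240 CPM beside 149 to 236 CPM. Its Pecam1 (1003 CPM) and Col1a2 (3868 CPM) were the highest of the 4 as well. The part of these other cells in the counts of the 9 genes was not tested.

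**Figure D5:**
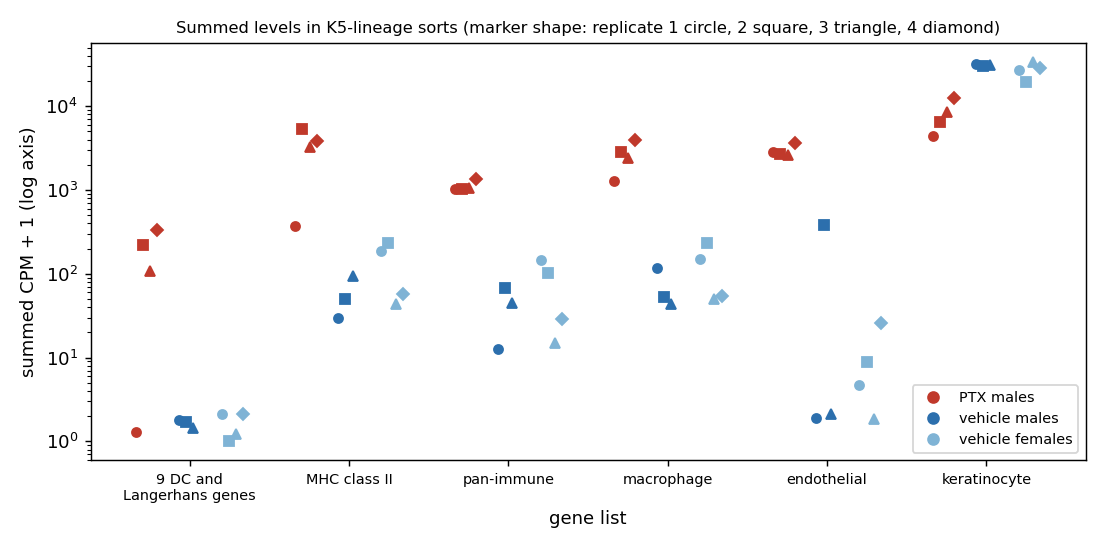
Summed CPM + 1 on a log axis for the 9 genes and 5 other gene lists in the keratinocyte sort, with PTX males (4 libraries), vehicle males (3) and vehicle females (4) in colour and the replicate number as point shape. PTX libraries 2 to 4 stand above the vehicle libraries for the 9 genes and PTX library 1 stands among them, while for the immune lists all 4 PTX libraries lie above the vehicle libraries.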

How the data were processed

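Messenger RNA of CD45-sorted immune cells, Col1a2-marked fibroblasts and K5-marked keratinocytes was measured in 35 libraries by stranded, single-end 50-base sequencing, per the labels' protocols. The authors deposited raw counts per gene symbol for each library. bcl2fastq, TopHat2, HTSeq and the mm9 build are named in the submitters' processing notes. Not given in the sources used here are their versions, the annotation and the strand setting of the counting. Genes held 19.3 to 52.3% of the total in each library. Summary rows that name no gene entered neither library sizes nor tests, among them reads with no unique place (34.9 to 60.9%) and reads outside genes (10.4 to 31.0%).

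Counts were filtered with edgeR's filterByExpr within each sort, scaled by TMM and tested with edgeR's quasi-likelihood test (edgeR 4.0.16, R 4.3.3) over all 3 groups of a sort, with Benjamini-Hochberg adjustment over all genes tested and a threshold of 0.05. The comparison of vehicle sorts used all libraries of the 3 sorts. Patterns were compared on log2(CPM + 1). Alternatives were other scalings, no filter, DESeq2 1.42.0, limma 3.58.1 with voom quality weights, other sets of groups, a replicate block and leaving out each library. The 9 genes and the lists were chosen with earlier results of these data known. Named were the 9 genes, up to 4 called genes of each list with the lowest p (at most 2 where none was called), the 3 genes most like each of the 9, and the markers of the sorts, except that the gene called lower among the Langerhans cell genes is not reported here. List medians in the dendritic cell lists were the same with genes at 0 set to their bound. No pair of libraries of a group agreed within sampling noise (lowest chi-square per degree of freedom 89.8). Of the statistics used, only edgeR's test of PTX against vehicle males in the immune sort was tried on simulated data.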

Additional observations from a re-analysis of the deposited data

Results flagged for a closer look

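Dixon's 95% criterion takes the gap to the nearest other library as a share of the group's range. Chance passes it in about 1 in 20 groups of normally distributed values, a rate that need not hold for these CPM. In 46 groups of 4 libraries with at least 10 counts in 1 library, 8 held a library that stood apart from the others by this criterion. In immune cells these were Ccr7 in PTX library 2, at 0.783 CPM beside 194 to 211 CPM in the other PTX libraries, Ccr7 in vehicle female library 2, at 410.1 CPM beside 18.9 to 61.7 CPM, and Cd207 in vehicle male library 2, at 6.51 CPM beside 0.0488 to 0.400 CPM. In fibroblasts they were Zbtb46 in vehicle male library 2, at 3.10 CPM beside 0.0480 to 0.535 CPM, and Cd86 in vehicle female library 1, at 1.17 CPM beside 0.315 to 0.439 CPM. In PTX keratinocytes they were Flt3 in library 2, at 120.4 CPM beside 0 to 0.142 CPM, Batf3 in library 4, at 19.9 CPM beside 0 to 0.129 CPM, and Zbtb46 in library 4, at 192 CPM beside 0 to 0.129 CPM.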

How the results depend on the processing

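Of 925 repeated tests of the 9 genes, 854 kept their direction and side of the threshold, 23 lost and 7 gained the threshold and 41 changed sign, and where no value below bears on it the cause was not tested. In PTX against vehicle males, 1 of the 9 was called, against 0 with plain CPM, pan-immune scaling, no filter, voom, only the 2 groups or the replicate block, 3 with DESeq2 and 0 to 1 without 1 library. Against vehicle females (0 called), DESeq2 and both vehicle groups as controls gave 1. In vehicle females against males (0 called) voom gave 1, and in fibroblasts (0 called) DESeq2 gave 1.

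Over all genes, 669 calls against vehicle males became 407 without the filter, 1870 with DESeq2, 38 with voom and 230 to 954 without 1 library. Against vehicle females 213 became 94, 1258 and 1 under the same settings, 2 with only the 2 groups, 489 with both vehicle groups as controls and 8 to 520 without 1 library. Between vehicle groups 43 became 284 with DESeq2, 444 with voom, 166 with only the 2 groups and 12 to 29 without 1 library, and with pan-immune scaling 2.22% instead of 18.6% of calls were higher. In fibroblasts 2 became 1 with RLE scaling, plain CPM or only the 2 groups, 4 without the filter, 412 with DESeq2, 0 with voom and 0 to 4 without 1 library. In keratinocytes 159 became 1339 with DESeq2, 385 with voom and 84 to 121 without 1 library, and in vehicle immune cells against fibroblasts 2807 became 4956 with voom.

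Signs changed as follows, as log2 fold changes. Against vehicle males Ccr7 was -0.15 with plain CPM, -0.32 with pan-immune scaling, -2.08 with voom and -0.17 to 0.67 without 1 library, and Itgax was -1.83 with voom and -0.55 to 1.43 without 1 library. Against vehicle females Itgax was -0.18, -0.071 and -2.15 under those 3 settings and -1.30 to 0.67 without 1 library, and Ccr7 was -0.23, -0.22 and -0.91, and -0.26 to 1.61. There Cd86 was -0.20 with voom and -0.48 to 0.56 without 1 library, and Irf8 was 0.13 with voom, 0.31 with both vehicle groups as controls and -0.44 to 0.31 without 1 library. Between vehicle groups Ccr7 was -0.10 with pan-immune scaling, -1.17 with voom and -1.42 to 0.57 without 1 library, and Flt3 was -1.07 to 0.0019. In fibroblasts without 1 library Cd86 was -0.68 to 0.59 and Irf8 -0.10 to 1.88.

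The labels' replicate numbers did not pair the libraries: deviations of same-numbered immune libraries correlated at -0.05 to 0.12, over 0.1 in 1 of 12 pairs. With the replicate block 148 genes were called against vehicle males, 3 against vehicle females and 24 between vehicle groups, Itgax against vehicle females was -0.050 and Ccr7 between vehicle groups was -0.24. In keratinocytes only the run without the filter and those without 1 vehicle male library tested any of the 9 genes, and none was called. In the other alternatives the filter left none of the 9 to test.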
